A study of Mus musculus with 12 samples.

Results

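The genes described here are 51 components of the TGF-beta and BMP pathway: ligands, latency proteins, extracellular antagonists, receptors, SMADs, SMAD ubiquitin ligases and direct target genes. They were taken by name from a table of 21881 genes, and all 51 were found in it. The table holds FPKM values, which are sequenced fragments divided by transcript length and by the library's mapped fragments, from sequencing of polyadenylated RNA. Of the 51 genes, 38 reached 1 FPKM in at least 3 of the 12 libraries and were tested, among the 11801 genes of the whole table that passed the same filter.

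The cells were immortalized lines of mouse mesenchymal stem cells, fibroblast-like cells of adult bone marrow, from the C57BL/6 strain, each grown out of 1 cell. KO_let-7g cells were Dicer -/- and received a synthetic duplex of the microRNA let-7g. KO_siNr6a1 cells were Dicer -/- and received an siRNA against Nr6a1, an orphan nuclear receptor that represses transcription. KO_siCtrl cells were Dicer -/- and received a control siRNA with no intended target, and WT_siCtrl cells were Dicer f/f, with an intact enzyme, and received the same control siRNA. Each group had 3 libraries, numbered 0, 1 and 2, and values are given in that order. Every duplex was used at 20 nM and RNA was taken after 48 h. Dicer cuts microRNA precursors into mature microRNAs, so all 3 KO groups lack the enzyme, and a duplex supplied from outside does not need it. The labels do not say how many clones of each genotype were used, so the effect of Dicer and the differences between lines cannot be told apart. Nor is it stated whether the 3 libraries of a group were grown as separate cultures, and the p-values therefore cover library spread, which may be technical. In bulk RNA, fewer cells expressing a gene and less RNA per cell cannot be told apart.

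In this pathway, ligand dimers bring together type I and type II receptor kinases, which phosphorylate receptor SMADs that enter the nucleus with Smad4. TGF-beta and activin act mainly through Smad2 and Smad3, and BMPs mainly through Smad1, Smad5 and Smad9, whose best known direct targets are the Id genes. Secreted antagonists, latency proteins, inhibitory SMADs and ubiquitin ligases restrain the signal. In bone marrow mesenchymal cells BMP signalling is known for driving bone formation, and TGF-beta for matrix production and smooth muscle genes.

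The targeted genes followed their labels. Nr6a1 was measured at 3.87, 5.38 and 3.39 FPKM in KO_let-7g, 3.43, 4.3 and 3.31 in KO_siNr6a1, 12.6, 12.3 and 10.2 in KO_siCtrl, and 1.16, 0.945 and 1.25 in WT_siCtrl, so that both treated KO groups lay below every KO_siCtrl library and WT_siCtrl lay lowest. Dicer1 was measured at 2.88, 2.86 and 2.37 FPKM in KO_let-7g, 3.58, 2.82 and 3.04 in KO_siNr6a1, 3.9, 3.63 and 4.06 in KO_siCtrl, and 8.24, 5.58 and 5.93 in WT_siCtrl, and every KO library lay below every WT_siCtrl library. FPKM sums over the whole transcript, so the Dicer1 value does not show which exons were deleted. Relative sequencing depth was 1.34 to 1.82 in KO_let-7g, 1.13 to 1.57 in KO_siNr6a1, 1 to 1.31 in KO_siCtrl and 1.11 to 1.29 in WT_siCtrl, with the shallowest library set to 1. Of 14 mesenchymal markers, 13 averaged at least 1 FPKM in each group. The exception, Thy1, was listed at 0 in 11 of 12 libraries, with 0.00542 FPKM in the other. The summed level of 8 endothelial markers was at most 0.434 FPKM in any library, of 8 epithelial markers at most 3.19 FPKM, and of 8 blood markers at most 20.4 FPKM, nearly all of it Cd14.

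Sequences are shown first for let-7g and for every let-7 site in the 6 members that hold one and were lower with let-7g than in KO_siCtrl or in KO_siNr6a1 (adjusted p under 0.05). The mature mouse let-7g (RefSeq, GRCm38.p6, chr9:106178846-106178867, plus strand) is printed with its seed, bases 2 to 8, in capitals.
let-7g: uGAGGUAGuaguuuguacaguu
A microRNA pairs through its seed with a complementary stretch of a 3′ UTR. Sites searched in the longest annotated 3′ UTR of each gene (GENCODE vM21, build GRCm38) were CTACCTCA, called an 8mer, CTACCTC and TACCTCA, called 7mers, on the transcribed strand only, and an 8mer was not also counted as a 7mer. The authors' own build was mm9, so these positions come from the annotation and not from the deposited table. All 51 genes had an annotated 3′ UTR. Each line below is a stretch of 3′ UTR with the site in capitals.
Tgfbr1 8mer, chr4:47410832-47410859, plus strand, exon 9: ggctggttgttCTACCTCActgagagaa
Tgfbr1 7mer, chr4:47414471-47414498, plus strand, exon 9: ccaaggtacattTACCTCAttgtgtata
Skil 7mer, chr3:31121989-31122016, plus strand, exon 7: ttcaatataagaTACCTCActtgagaat
Skil 8mer, chr3:31122341-31122368, plus strand, exon 7: aaaactgtcctCTACCTCAcgtgaaata
Skil 7mer, chr3:31122466-31122493, plus strand, exon 7: gctcttggcttaTACCTCAattgtattt
Tgfbr3 8mer, chr5:107106951-107106978, minus strand, exon 17: ttgtactgtaaCTACCTCAtggtttgaa
Acvr1b 7mer, chr15:101210925-101210952, plus strand, exon 9: gtcgtggaggcCTACCTCttgtttctgc
Acvr2a 7mer, chr2:48900360-48900387, plus strand, exon 11: ctcaacaaggtaTACCTCAgttccacgg
Acvr2a 7mer, chr2:48902936-48902963, plus strand, exon 11: ttaaacatcattTACCTCAgatattcaa
Gdf11 7mer, chr10:128883332-128883359, minus strand, exon 3: acaccctaaccaTACCTCAgcagtggcc
Among the tested members, 10 of 38 held a 7mer or 8mer (26.3%), against 16.8% of the 10222 tested genes with an annotated 3′ UTR. The 3′ UTRs of the members were also longer, with a median of 1949 bases against 1192 bases. An 8mer was present in 3 tested members, Tgfbr1, Tgfbr3 and Skil. A sequence match is a description and does not show that let-7g acts on the transcript.

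Loss of Dicer went with lower levels of most tested members. In KO_siCtrl against WT_siCtrl, 6 of 38 were higher and 21 lower at a Benjamini-Hochberg adjusted p under 0.05 (limma), so 71.1% were called, against 54.3% of all tested genes. Over all tested genes 29.1% were called higher and 25.2% lower. A log2 fold change of at least 1 in size was reached by 12 called members, while 12.4% of all tested genes did so. The members' median log2 fold change was -0.38, against 0.04 over all tested genes. Inhbb and Fstl3 passed the filter only through their WT_siCtrl libraries, so they had to be lower, and the count is a description of the 38 and not of all 51. Both are among the 21 lower members and the 12 with at least 1 log2 unit.

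The let-7g duplex went with changes in both directions. In KO_let-7g against KO_siCtrl, 13 members were higher and 8 lower, or 55.3% of 38, against 45.6% of all tested genes, where 27.5% were higher and 18.2% lower. Of these, 9 members differed by at least 1 on the log2 scale, as did 6.47% of all tested genes. With median-of-ratios scaling the split of the members was 11 higher and 11 lower, beside 2635 higher and 2713 lower over all tested genes. The median log2 fold change was -0.01 for the members and 0.08 for all tested genes.

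With the siRNA against Nr6a1, 8 members were higher and 2 lower than in KO_siCtrl. That is 26.3% of the 38, close to the 29.4% of all tested genes that were called, of which 13.2% were higher and 16.3% lower. Of the 10 called, 3 differed by at least 1 on the log2 scale, and 2.63% of all tested genes did. With the library number as a block the counts were 14 higher and 5 lower, when 44.5% of all tested genes were called. Without KO_siNr6a1 library 0 or 2, 1 member was lower, when 23.3% and 21.6% of all tested genes were called either way. The medians were 0.10 for the members and -0.06 for all tested genes.

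Set directly against each other, KO_let-7g had 4 members higher and 8 lower than KO_siNr6a1. The 31.6% called was below the 40.9% of all tested genes, of which 27.6% were higher and 13.3% lower. At least 1 log2 unit of difference was seen in 7 of the 12, and in 4.23% of all tested genes. With the block, 7 were higher, and without KO_let-7g library 2, 2 were. Of all tested genes, 54.7% and 33.2% were then called either way. With median-of-ratios scaling the split was 3 higher and 13 lower, and with quantile scaling 2 and 11. Over all tested genes these scalings gave 1973 higher and 2399 lower, and 2214 higher and 2080 lower. The median of all tested genes was 0.12 here, and -0.01 and 0.02 under those scalings, so that each value in this comparison is to be read against that shift. Both treated groups were compared with the same 3 KO_siCtrl libraries, and their values against it are therefore not independent of each other.

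**Figure D1:**
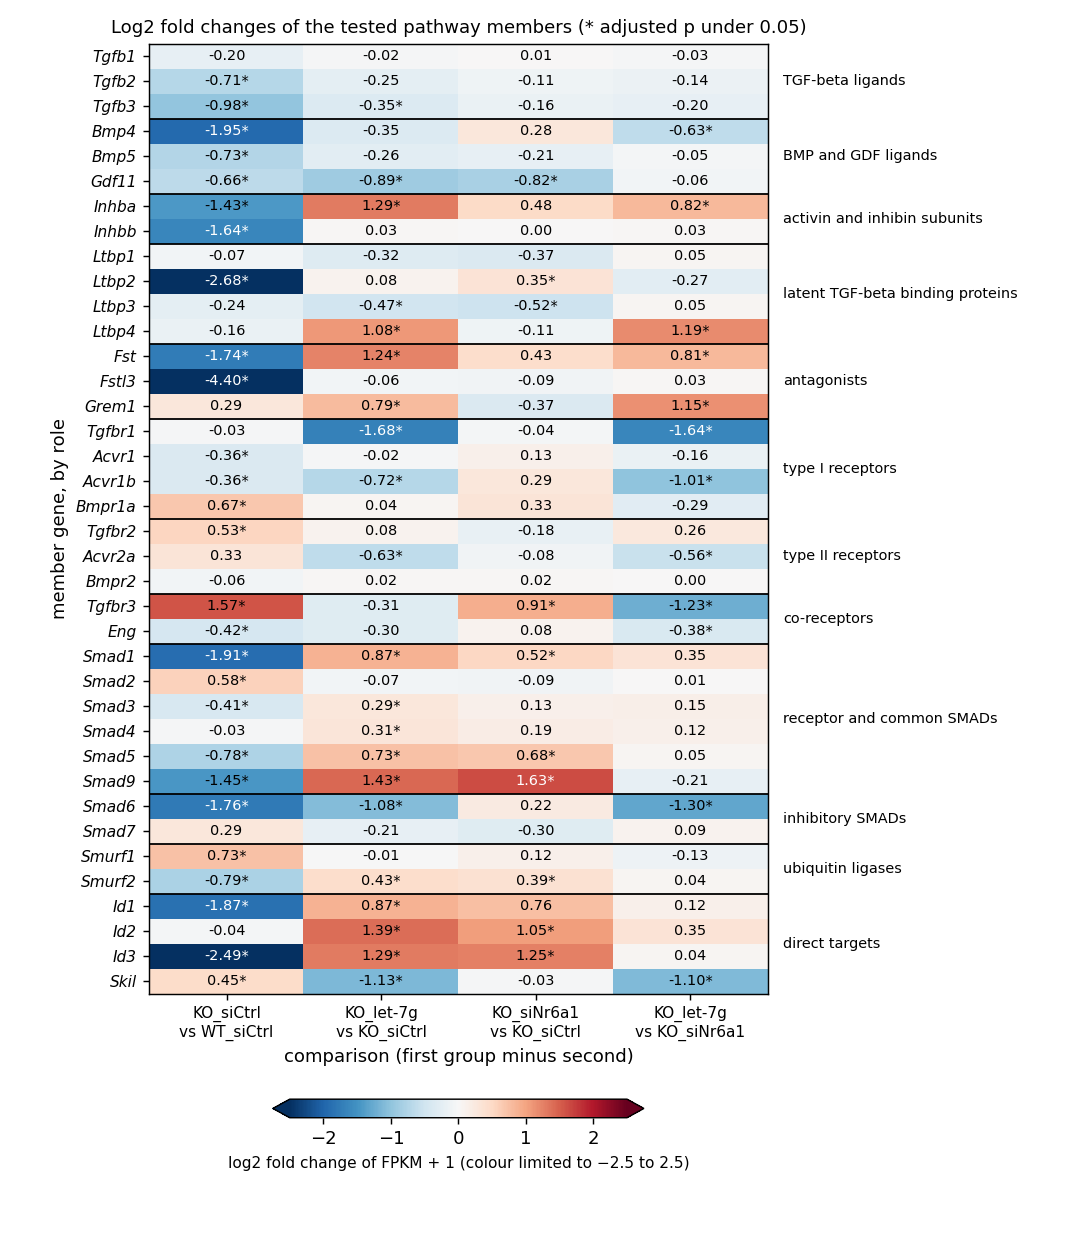
Log2 fold changes (of FPKM + 1) of the 38 tested members, 1 row per gene grouped by role and 1 column per comparison, with the first named group over the second. Asterisks mark an adjusted p under 0.05. The direct targets Id1 and Id3 and the BMP-branch SMADs Smad1, Smad5 and Smad9 are blue in KO_siCtrl vs WT_siCtrl and red with let-7g, while Tgfbr1 and Skil are dark blue in both let-7g columns.

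Among the ligands, Tgfb1, the prototype of the family, ranged over 51.1 to 92.8 FPKM across the 12 libraries, with no call in any comparison. Tgfb2 and Tgfb3, its close relatives, were lower in KO_siCtrl than in WT_siCtrl. Tgfb2 was measured at 27.5, 31.9 and 18.5 FPKM in KO_let-7g, 28.3, 33.5 and 23.3 in KO_siNr6a1, 33, 35.9 and 23.6 in KO_siCtrl, and 50.8, 48.2 and 52.2 in WT_siCtrl. No KO library of Tgfb2 reached the lowest WT_siCtrl library (log2 fold change -0.71 ± 0.20, adjusted p = 0.0113 in KO_siCtrl against WT_siCtrl). Tgfb3 was measured at 11.2, 11.3 and 9.98 FPKM in KO_let-7g, 11.9, 12.6 and 13.2 in KO_siNr6a1, 14.6, 12.1 and 15.7 in KO_siCtrl, and 26.6, 29.7 and 30.4 in WT_siCtrl. The WT_siCtrl libraries of Tgfb3 stood apart from every KO library (log2 fold change -0.98 ± 0.10, adjusted p = 1.21e-05), while the small difference between KO_let-7g and KO_siCtrl (log2 fold change -0.35 ± 0.10, adjusted p = 0.0144) lost its call without KO_siCtrl library 2 (adjusted p = 0.0577) or KO_let-7g library 2 (adjusted p = 0.056, with 0.0034 to 0.0577 over all alternatives).

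Bmp4, a BMP that induces bone and patterns mesoderm, had the largest loss among the tested TGF-beta, BMP and GDF ligands. It was measured at 15.4, 19.3 and 19.1 FPKM in KO_let-7g, 21.7, 32.7 and 31.6 in KO_siNr6a1, 19.1, 25 and 25.4 in KO_siCtrl, and 71.4, 102 and 105 in WT_siCtrl. Every KO library lay below every WT_siCtrl library (log2 fold change -1.95 ± 0.19, adjusted p = 7.99e-06 in KO_siCtrl against WT_siCtrl). KO_let-7g lay below KO_siNr6a1 in every library (log2 fold change -0.63 ± 0.19, adjusted p = 0.0202), a call that was lost without KO_let-7g library 0 (adjusted p = 0.0758), KO_siNr6a1 library 1 (adjusted p = 0.0752) or KO_siNr6a1 library 2 (adjusted p = 0.0734, with 5.66e-05 to 0.0758 over all alternatives). Against KO_siCtrl the calls of Bmp4 depended on the library number as a block. Without the block it was called with neither treatment (adjusted p = 0.157 with let-7g and 0.289 with siNr6a1). With the block it was lower with let-7g (log2 fold change -0.35, adjusted p = 0.00129, and up to 0.381 over the other alternatives) and higher with siNr6a1 (log2 fold change 0.28, adjusted p = 0.00624, and up to 0.617 over the others).

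Bmp5, another BMP of bone and cartilage, averaged 9.76 ± 1.6 FPKM in KO_let-7g, 10.1 ± 0.295 in KO_siNr6a1, 12 ± 2.47 in KO_siCtrl, and 20.2 ± 0.167 in WT_siCtrl (SD, n = 3 each), and was lower in KO_siCtrl than in WT_siCtrl (log2 fold change -0.73 ± 0.14, adjusted p = 0.0012). Gdf11, a ligand that signals through Smad2 and Smad3, was lower in KO_siCtrl than in WT_siCtrl, and lower again in both treated groups. It was measured at 9.12, 10.3 and 8.96 FPKM in KO_let-7g, 10.9, 8.88 and 10.1 in KO_siNr6a1, 18.6, 16.7 and 19.7 in KO_siCtrl, and 26, 25.8 and 37.9 in WT_siCtrl. The treated groups did not overlap KO_siCtrl, and KO_siCtrl did not overlap WT_siCtrl (log2 fold change -0.66 ± 0.14, adjusted p = 0.00232). Gdf11 fell by 0.89 on the log2 scale with let-7g (adjusted p = 0.000464) and by 0.82 with siNr6a1 (adjusted p = 0.00158), with no call between the treatments (adjusted p = 0.755). The remaining 6 BMP and GDF ligands, Bmp2, Bmp3, Bmp6, Bmp7, Gdf5 and Gdf6, were below the filter, with at most 0.367 FPKM in any library. Bmp2, an inducer of osteoblasts, was listed at 0 in every KO_let-7g and KO_siCtrl library and at 0.217, 0.281 and 0.23 FPKM in WT_siCtrl.

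Both activin subunits were lower in KO_siCtrl than in WT_siCtrl, and only Inhba was called higher with let-7g. Inhba encodes the subunit of activin A, a ligand of the Smad2 and Smad3 branch, and was measured at 17.5, 10.9 and 16 FPKM in KO_let-7g, 9.69, 6.16 and 7.89 in KO_siNr6a1, 7.27, 3.69 and 5.52 in KO_siCtrl, and 23.3, 14.5 and 12.3 in WT_siCtrl. KO_siCtrl lay below every WT_siCtrl library (log2 fold change -1.43 ± 0.27, adjusted p = 0.000974), and KO_let-7g lay above every KO_siCtrl library (log2 fold change 1.29 ± 0.27, adjusted p = 0.00253) and reached into the WT_siCtrl range. In KO_siNr6a1 2 of 3 libraries were above every KO_siCtrl library, with no call (log2 fold change 0.48 ± 0.27, adjusted p = 0.212), and with the block this difference was called (adjusted p = 0.0208, and up to 0.546 over the other alternatives). KO_let-7g was higher than KO_siNr6a1 (log2 fold change 0.82 ± 0.27, adjusted p = 0.0317) without overlap, a call lost without KO_let-7g library 0 (adjusted p = 0.105), KO_let-7g library 2 (adjusted p = 0.0907), KO_siNr6a1 library 1 (adjusted p = 0.108) or KO_siNr6a1 library 2 (adjusted p = 0.0701). The call was also lost with no filter on low values and with median-of-ratios or quantile scaling (adjusted p of 0.0700 to 0.0817). Inhbb, the subunit of activin B, was measured at 0.0302, 0.0265 and 0.0386 FPKM in KO_let-7g, 0, 0.014 and 0.0264 in KO_siNr6a1, 0.00283, 0.0237 and 0.0124 in KO_siCtrl, and 2.05, 2.07 and 2.39 in WT_siCtrl. It was near 0 in every KO library (log2 fold change -1.64 ± 0.08 in KO_siCtrl against WT_siCtrl), and the fold change with a pseudocount of 0.1 was -4.33. Inhbb passed the filter only through its WT_siCtrl libraries, so its call as lower was fixed in advance and its p-value is not given. Inha, the inhibin subunit, did not exceed 0.376 FPKM.

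Latency proteins of the LTBP family hold TGF-beta in the matrix, except Ltbp2, which is not known to bind it. Ltbp1 had the highest FPKM of the 4, at 99.6 to 184 FPKM over all libraries, and was called in no comparison in the main fit, which had no block. With the block it was lower with let-7g (adjusted p = 0.0168, with 0.0116 to 0.177 over all alternatives) and with siNr6a1 (adjusted p = 0.012, with 0.00933 to 0.153 over all alternatives). It was also called lower in both without WT_siCtrl library 0 or 1 and with only the compared libraries fitted (adjusted p = 0.0143 with let-7g and 0.0135 with siNr6a1). Median-of-ratios scaling gave a call with let-7g (adjusted p = 0.0285), and a pseudocount of 0.1 gave one with siNr6a1 (adjusted p = 0.0499). Ltbp2 was measured at 1.06, 0.925 and 0.795 FPKM in KO_let-7g, 1.27, 1.39 and 1.3 in KO_siNr6a1, 0.723, 0.935 and 0.809 in KO_siCtrl, and 12.1, 9.17 and 10.9 in WT_siCtrl. Its WT_siCtrl libraries stood far above all 9 KO libraries (log2 fold change -2.68 ± 0.11, adjusted p = 1.02e-08). KO_siNr6a1 lay just above every KO_siCtrl library (log2 fold change 0.35 ± 0.11, adjusted p = 0.0293), a call lost without KO_siCtrl library 0 or 2 or without any of the 3 KO_siNr6a1 libraries (adjusted p of 0.0591 to 0.0934).

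Ltbp4, which is also needed for elastic fibres, was called higher with let-7g and not called with siNr6a1 (adjusted p = 0.614). It was measured at 5.07, 4.34 and 5.38 FPKM in KO_let-7g, 1.31, 1.8 and 1.66 in KO_siNr6a1, 1.77, 1.44 and 2.22 in KO_siCtrl, and 1.74, 1.92 and 2.8 in WT_siCtrl. Every KO_let-7g library was above all 9 others (log2 fold change 1.08 ± 0.15, adjusted p = 0.000167 against KO_siCtrl), and the direct comparison with KO_siNr6a1 gave log2 fold change 1.19 ± 0.15, adjusted p = 0.000141. Ltbp3 averaged 47.7 ± 3.47 FPKM in KO_let-7g, 46.5 ± 7.46 in KO_siNr6a1, 66.5 ± 7.35 in KO_siCtrl, and 79.3 ± 14.1 in WT_siCtrl (SD, n = 3 each). It was lower with let-7g (log2 fold change -0.47 ± 0.14, adjusted p = 0.0204) and with siNr6a1 (log2 fold change -0.52 ± 0.14, adjusted p = 0.0204). The first call was lost without KO_siCtrl library 1 or 2 or KO_let-7g library 0 or 2 (adjusted p of 0.0514 to 0.0698). The second was lost without KO_siCtrl library 1 or 2 or KO_siNr6a1 library 0 or 2 (adjusted p of 0.0568 to 0.0770).

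Follistatin-type antagonists bind activins and keep them from their receptors. Fst was measured at 6.17, 6.94 and 6.88 FPKM in KO_let-7g, 2.99, 3.73 and 3.37 in KO_siNr6a1, 1.91, 3 and 1.9 in KO_siCtrl, and 6.31, 15.3 and 9.49 in WT_siCtrl. Every KO_siCtrl library lay below every WT_siCtrl library (log2 fold change -1.74 ± 0.24, adjusted p = 0.000101), and every KO_let-7g library lay above every KO_siCtrl library (log2 fold change 1.24 ± 0.24, adjusted p = 0.00147). With siNr6a1 the level was intermediate (log2 fold change 0.43 ± 0.24, adjusted p = 0.2), and the difference between the treatments was called (log2 fold change 0.81 ± 0.24, adjusted p = 0.0182), except without KO_let-7g library 1 or 2 (adjusted p = 0.0507 each), without KO_siNr6a1 library 0 (adjusted p = 0.0573) and with quantile scaling (adjusted p = 0.054).

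Fstl3, a relative of Fst, was measured at 0.0135, 0.0418 and 0.116 FPKM in KO_let-7g, 0.0451, 0.0409 and 0.0115 in KO_siNr6a1, 0.0266, 0.298 and 0.00306 in KO_siCtrl, and 21, 23.7 and 22.2 in WT_siCtrl. It was near 0 in all 9 KO libraries and far higher in every WT_siCtrl library (log2 fold change -4.40 ± 0.11 in KO_siCtrl against WT_siCtrl). With a pseudocount of 0.1 the fold change was -7.01. Fstl3 also passed the filter only through its WT_siCtrl libraries, so its call as lower was fixed in advance and its p-value is not given. Grem1, a secreted BMP antagonist, was measured at 4.37, 2.98 and 4.62 FPKM in KO_let-7g, 1.45, 1.05 and 1.17 in KO_siNr6a1, 1.9, 1.19 and 2.69 in KO_siCtrl, and 1.29, 1.08 and 1.69 in WT_siCtrl. All KO_let-7g libraries were above all others (log2 fold change 0.79 ± 0.19, adjusted p = 0.0066 against KO_siCtrl and log2 fold change 1.15 ± 0.19, adjusted p = 0.00088 against KO_siNr6a1). The other BMP antagonists, Nog and Chrd, were below the filter. Nog, or noggin, was at most 0.0365 FPKM in KO_siCtrl, against 0.292, 2.61 and 0.811 FPKM in WT_siCtrl.

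**Figure D2:**
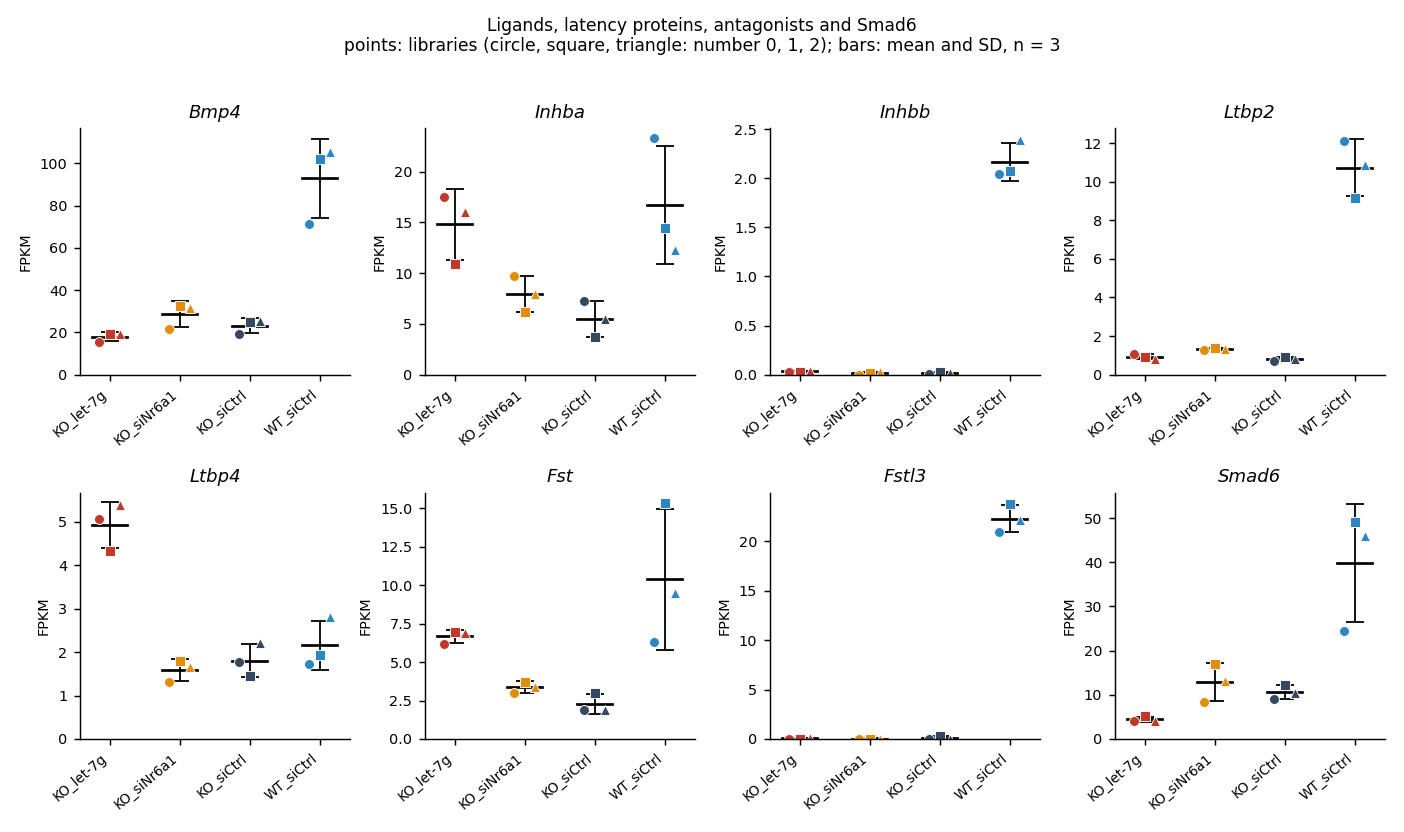
FPKM of 7 extracellular members and Smad6 in each library, with the mean and SD of each group of 3. WT_siCtrl libraries stand alone for Bmp4, Inhbb, Ltbp2 and Fstl3, KO_let-7g libraries are the highest for Ltbp4, and Inhba and Fst in KO_let-7g lie above KO_siCtrl.

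Type I receptors carried the largest fall with let-7g. Tgfbr1, the type I receptor of TGF-beta, holds an 8mer and a 7mer (printed above) and was measured at 8.33, 10.7 and 7.27 FPKM in KO_let-7g, 27.8, 29.4 and 30 in KO_siNr6a1, 29.2, 36.7 and 25.1 in KO_siCtrl, and 34, 29.1 and 28.8 in WT_siCtrl. The 3 KO_let-7g libraries lay far below the 9 others, which overlapped one another. Tgfbr1 differed with let-7g against KO_siCtrl (log2 fold change -1.68 ± 0.15, adjusted p = 1.08e-05) and against KO_siNr6a1 (log2 fold change -1.64 ± 0.15, adjusted p = 2.25e-05), and was not called with siNr6a1 (adjusted p = 0.861) or between KO_siCtrl and WT_siCtrl (adjusted p = 0.897).

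Acvr1b, the type I receptor of activin, holds a 7mer and was measured at 1.88, 2.35 and 1.88 FPKM in KO_let-7g, 5.55, 4.85 and 4.96 in KO_siNr6a1, 3.63, 4.47 and 3.94 in KO_siCtrl, and 4.85, 5.7 and 5.76 in WT_siCtrl. KO_let-7g libraries were the lowest and did not overlap any other group (log2 fold change -0.72 ± 0.11, adjusted p = 0.000253 against KO_siCtrl and log2 fold change -1.01 ± 0.11, adjusted p = 5.01e-05 against KO_siNr6a1). KO_siCtrl was also lower than WT_siCtrl (log2 fold change -0.36 ± 0.11, adjusted p = 0.0126), a call lost without KO_siCtrl library 0 (adjusted p = 0.0532, with 0.00565 as the lowest over all alternatives). Among the BMP type I receptors, Bmpr1a averaged 42.8 ± 6.32 FPKM in KO_let-7g, 52.2 ± 2.58 in KO_siNr6a1, 41.7 ± 6.81 in KO_siCtrl, and 25.7 ± 3.1 in WT_siCtrl (SD, n = 3 each) and was higher in KO_siCtrl than in WT_siCtrl (log2 fold change 0.67 ± 0.14, adjusted p = 0.00193). Acvr1 ranged over 22.1 to 34 FPKM and was lower in KO_siCtrl (log2 fold change -0.36 ± 0.09, adjusted p = 0.00564). Acvr1c, Bmpr1b and Acvrl1 were below the filter, with at most 0.266 FPKM.

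Of the type II receptors, Acvr2a, which binds activins and some BMPs, carries 7mers at a pair of positions. It was measured at 5.13, 6.07 and 4.18 FPKM in KO_let-7g, 7.81, 7.88 and 8.17 in KO_siNr6a1, 8.43, 9.93 and 7.16 in KO_siCtrl, and 7.26, 6.77 and 5.63 in WT_siCtrl. All KO_let-7g libraries were below all KO_siCtrl and KO_siNr6a1 libraries (log2 fold change -0.63 ± 0.14, adjusted p = 0.00334 and log2 fold change -0.56 ± 0.14, adjusted p = 0.00815), and overlapped WT_siCtrl. Tgfbr2, the type II receptor of TGF-beta, holds no such site and averaged 39.8 ± 3.53 FPKM in KO_let-7g, 33.2 ± 4.9 in KO_siNr6a1, 37.7 ± 5.23 in KO_siCtrl, and 25.6 ± 2.62 in WT_siCtrl (SD, n = 3 each). It was higher in KO_siCtrl than in WT_siCtrl (log2 fold change 0.53 ± 0.13, adjusted p = 0.00547) and was not called with let-7g (adjusted p = 0.646). Bmpr2, the BMP type II receptor, ranged over 6.07 to 16.2 FPKM with no call, and Acvr2b reached 1 FPKM in too few libraries to pass the filter, with at most 1.17 FPKM. With no filter on low values, 5 of the 13 members below it were called in KO_siCtrl against WT_siCtrl. That is close to the 35.9% called of the 19916 genes then tested. Acvr2b was higher (log2 fold change 0.53, adjusted p = 0.00387) and Nog lower (log2 fold change -1.01, adjusted p = 0.0203). Bmp2, Acvrl1 and Acvr1c were lower by log2 fold changes of only -0.31, -0.16 and -0.01, with at most 0.281, 0.266 and 0.0101 FPKM in any library. Chrd was then called higher with let-7g than in KO_siCtrl (log2 fold change 0.13, adjusted p = 0.0118) and than in KO_siNr6a1 (log2 fold change 0.12, adjusted p = 0.0179). Its highest library had 0.132 FPKM. Calls of these 4 genes are near the floor.

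The co-receptors differed between the treatments. Tgfbr3, or betaglycan, presents TGF-beta to its type II receptor, and was measured at 43, 50.3 and 34.9 FPKM in KO_let-7g, 99.6, 104 and 96.8 in KO_siNr6a1, 57.2, 55.2 and 46.3 in KO_siCtrl, and 14.2, 21.2 and 16.6 in WT_siCtrl. All KO groups lay above WT_siCtrl (log2 fold change 1.57 ± 0.15, adjusted p = 8.31e-06 in KO_siCtrl against WT_siCtrl), and KO_siNr6a1 lay above both other KO groups (log2 fold change 0.91 ± 0.15, adjusted p = 0.00136 against KO_siCtrl). Although Tgfbr3 holds an 8mer, KO_let-7g overlapped KO_siCtrl with no call (adjusted p = 0.12), and was called lower with the block (adjusted p = 0.0397) and with median-of-ratios scaling (adjusted p = 0.0467), with up to 0.389 over the other alternatives. Set against KO_siNr6a1, KO_let-7g was lower without overlap (log2 fold change -1.23 ± 0.15, adjusted p = 0.000143). Eng, or endoglin, a co-receptor for ligands of the family that also marks mesenchymal stem cells, averaged 32 ± 1.71 FPKM in KO_let-7g, 42 ± 1.74 in KO_siNr6a1, 39.9 ± 4.73 in KO_siCtrl, and 53.8 ± 9.06 in WT_siCtrl (SD, n = 3 each). It was lower in KO_siCtrl than in WT_siCtrl (log2 fold change -0.42 ± 0.12, adjusted p = 0.0125) and lower with let-7g than with siNr6a1 (log2 fold change -0.38 ± 0.12, adjusted p = 0.025). The first call was lost without KO_siCtrl library 0 (adjusted p = 0.0561), and the second without KO_let-7g library 0 or 1 or KO_siNr6a1 library 1 or 2 (adjusted p of 0.0510 to 0.0834).

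**Figure D3:**
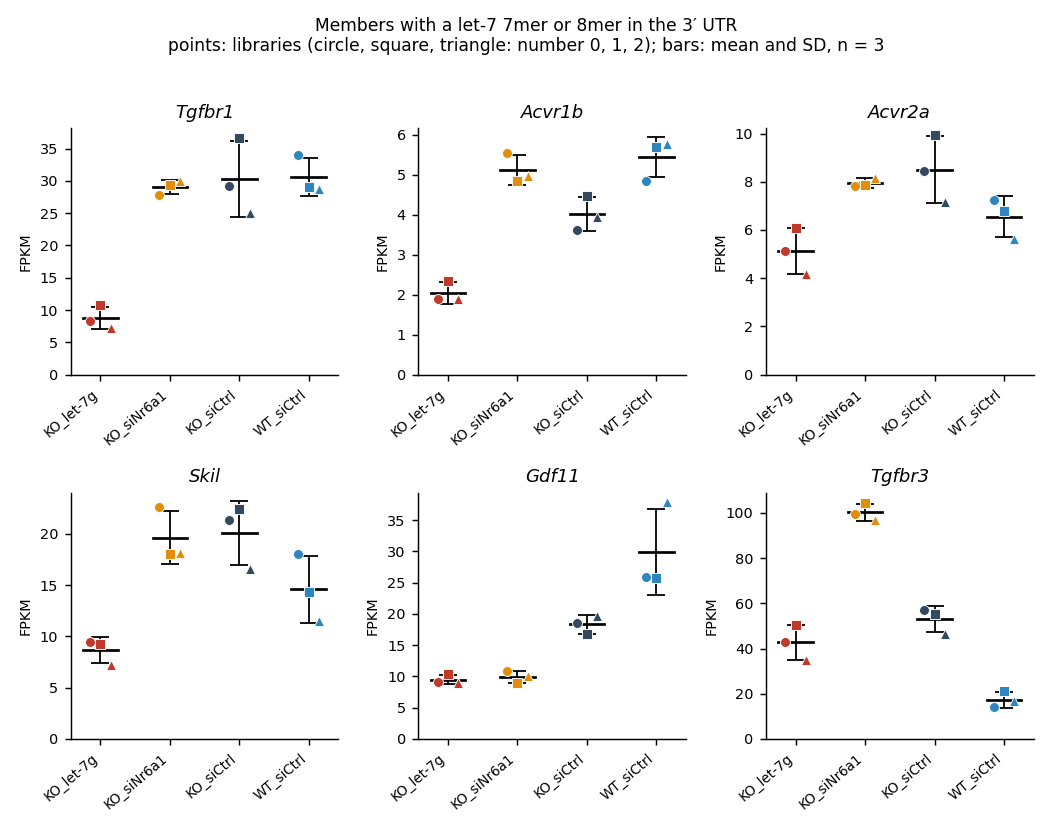
FPKM in each library of 6 of the 10 tested members whose 3′ UTR holds a let-7 7mer or 8mer, with the mean and SD of each group of 3. The 6 were chosen because they were called lower with let-7g than in KO_siCtrl or in KO_siNr6a1. Not shown are Smad5 and Smurf2, which were higher with let-7g than in KO_siCtrl, and Smad2 and Bmp5, which were not called with let-7g. KO_let-7g libraries lie below every other library for Tgfbr1, Acvr1b and Skil, both treated groups are low for Gdf11, and KO_siNr6a1 is highest for Tgfbr3.

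The receptor SMADs of the BMP branch were all lower without Dicer and all higher with either treatment. Smad1 was measured at 7.12, 9.06 and 8.11 FPKM in KO_let-7g, 4.93, 6.81 and 6.76 in KO_siNr6a1, 3.34, 4.7 and 3.98 in KO_siCtrl, and 16.2, 19 and 18.1 in WT_siCtrl. Every WT_siCtrl library exceeded every KO library (log2 fold change -1.91 ± 0.14, adjusted p = 8.83e-07 in KO_siCtrl against WT_siCtrl). The 3 KO_let-7g libraries and the 3 KO_siNr6a1 libraries were above all KO_siCtrl libraries (log2 fold change 0.87 ± 0.14, adjusted p = 0.000502 and log2 fold change 0.52 ± 0.14, adjusted p = 0.0174), though still less than the lowest WT_siCtrl library. The call with siNr6a1 was lost without KO_siCtrl library 0 (adjusted p = 0.067), KO_siNr6a1 library 1 (adjusted p = 0.0669) or KO_siNr6a1 library 2 (adjusted p = 0.0684, with 0.000461 as the lowest over all alternatives). Between the treatments Smad1 was not called (log2 fold change 0.35 ± 0.14, adjusted p = 0.0667), and was called higher with let-7g with the block (adjusted p = 0.00267, and up to 0.286 over the other alternatives).

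Smad9 was measured at 8.72, 10.7 and 7.77 FPKM in KO_let-7g, 8.42, 12.1 and 11.5 in KO_siNr6a1, 2.33, 3.84 and 2.2 in KO_siCtrl, and 9.06, 10.2 and 8.4 in WT_siCtrl. KO_siCtrl lay below all other libraries (log2 fold change -1.45 ± 0.18, adjusted p = 5.13e-05 against WT_siCtrl), and both treated groups overlapped WT_siCtrl (log2 fold change 1.43 ± 0.18, adjusted p = 9.93e-05 with let-7g and log2 fold change 1.63 ± 0.18, adjusted p = 0.000122 with siNr6a1). Between the treatments Smad9 was not called (log2 fold change -0.21 ± 0.18, adjusted p = 0.389). Smad5, the only BMP-branch SMAD here that holds a let-7 7mer, was measured at 14, 12.4 and 11.4 FPKM in KO_let-7g, 14, 10.8 and 11.7 in KO_siNr6a1, 8.67, 6.36 and 6.64 in KO_siCtrl, and 15.5, 13.1 and 11 in WT_siCtrl. The pattern was that of Smad9: KO_siCtrl was lowest with no overlap (log2 fold change -0.78 ± 0.15, adjusted p = 0.000991), and Smad5 was higher with let-7g (log2 fold change 0.73 ± 0.15, adjusted p = 0.0021) and with siNr6a1 (log2 fold change 0.68 ± 0.15, adjusted p = 0.00569).

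SMADs of the TGF-beta and activin branch had smaller log2 fold changes. Smad2 averaged 37.7 ± 2.08 FPKM in KO_let-7g, 37.3 ± 0.613 in KO_siNr6a1, 39.7 ± 2.52 in KO_siCtrl, and 26.3 ± 2.34 in WT_siCtrl (SD, n = 3 each) and was higher in KO_siCtrl than in WT_siCtrl (log2 fold change 0.58 ± 0.08, adjusted p = 0.000108), with no call for either treatment. Smad3 averaged 17.2 ± 2.24 FPKM in KO_let-7g, 15.3 ± 1.22 in KO_siNr6a1, 13.9 ± 1.26 in KO_siCtrl, and 18.7 ± 0.689 in WT_siCtrl (SD, n = 3 each) and was lower in KO_siCtrl (log2 fold change -0.41 ± 0.11, adjusted p = 0.00716). Its small rise with let-7g (log2 fold change 0.29 ± 0.11, adjusted p = 0.0465) was lost in 16 of 22 alternative settings (adjusted p of 0.0505 to 0.162), among them the omission of any 1 library other than KO_let-7g library 2. Smad4, the common partner, averaged 41.2 ± 0.264 FPKM in KO_let-7g, 37.8 ± 0.856 in KO_siNr6a1, 33.1 ± 0.736 in KO_siCtrl, and 33.9 ± 3.01 in WT_siCtrl (SD, n = 3 each) and was called higher with let-7g (log2 fold change 0.31 ± 0.07, adjusted p = 0.00464) and in no other comparison without the block.

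Among the intracellular inhibitors, Smad6, which mainly blocks BMP receptors, was measured at 4.16, 5.14 and 4.13 FPKM in KO_let-7g, 8.47, 17 and 13.2 in KO_siNr6a1, 9.05, 12.3 and 10.5 in KO_siCtrl, and 24.4, 49.2 and 45.9 in WT_siCtrl. All KO libraries were below all WT_siCtrl libraries (log2 fold change -1.76 ± 0.27, adjusted p = 0.000225 in KO_siCtrl against WT_siCtrl). Every KO_let-7g library was below every KO_siCtrl and KO_siNr6a1 library (log2 fold change -1.08 ± 0.27, adjusted p = 0.0072 and log2 fold change -1.30 ± 0.27, adjusted p = 0.0031), although the 3′ UTR holds no let-7 7mer or 8mer. With siNr6a1 Smad6 overlapped KO_siCtrl (log2 fold change 0.22 ± 0.27, adjusted p = 0.584). Smad7, which blocks both branches, ranged over 11 to 20.1 FPKM with no call without the block. With the block Smad7 was higher in KO_siCtrl than in WT_siCtrl (adjusted p = 0.0103, and up to 0.39 over the other alternatives) and lower with siNr6a1 (adjusted p = 0.0149, and up to 0.445 over the others).

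The ubiquitin ligases Smurf1 and Smurf2 mark SMADs and receptors for degradation, and differed in direction. Smurf1 averaged 27.8 ± 2.3 FPKM in KO_let-7g, 30.5 ± 1.33 in KO_siNr6a1, 28.1 ± 2.43 in KO_siCtrl, and 16.5 ± 0.936 in WT_siCtrl (SD, n = 3 each) and was higher in KO_siCtrl than in WT_siCtrl (log2 fold change 0.73 ± 0.09, adjusted p = 3.76e-05). Smurf2, which holds a let-7 7mer, was measured at 33.9, 36.1 and 31.2 FPKM in KO_let-7g, 32.9, 32 and 33.5 in KO_siNr6a1, 24.1, 27.2 and 23.1 in KO_siCtrl, and 42.9, 49.6 and 38.9 in WT_siCtrl. It was lower in KO_siCtrl than in WT_siCtrl (log2 fold change -0.79 ± 0.10, adjusted p = 4.78e-05) and higher with let-7g (log2 fold change 0.43 ± 0.10, adjusted p = 0.00419) and with siNr6a1 (log2 fold change 0.39 ± 0.10, adjusted p = 0.0117), with no overlap with KO_siCtrl.

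The Id genes, direct BMP targets that encode inhibitors of basic helix-loop-helix factors, were measured in all groups. Id3 was measured at 125, 156 and 143 FPKM in KO_let-7g, 100, 181 and 142 in KO_siNr6a1, 47.7, 69.5 and 56.2 in KO_siCtrl, and 228, 405 and 373 in WT_siCtrl. Every KO_siCtrl library was below every library of the other groups, and WT_siCtrl was above all KO libraries (log2 fold change -2.49 ± 0.25, adjusted p = 8.92e-06). Id3 was higher with let-7g (log2 fold change 1.29 ± 0.25, adjusted p = 0.00146) and with siNr6a1 (log2 fold change 1.25 ± 0.25, adjusted p = 0.00343), with no call between the treatments (adjusted p = 0.923).

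Id1 was measured at 43.6, 59.2 and 58.7 FPKM in KO_let-7g, 30.1, 70.1 and 56 in KO_siNr6a1, 20.4, 34.5 and 33.5 in KO_siCtrl, and 74.7, 138 and 120 in WT_siCtrl. KO_siCtrl did not overlap WT_siCtrl (log2 fold change -1.87 ± 0.32, adjusted p = 0.000494). KO_let-7g lay above every KO_siCtrl library (log2 fold change 0.87 ± 0.32, adjusted p = 0.0438), but this call was lost in 9 of 22 alternative settings (adjusted p of 0.0501 to 0.16), among them the omission of any KO_siCtrl library, of KO_let-7g library 1 or 2, of WT_siCtrl library 2 or of KO_siNr6a1 library 2. With siNr6a1 library 0 fell within the KO_siCtrl range, and the difference was not called (log2 fold change 0.76 ± 0.32, adjusted p = 0.0984), though it was with the block (adjusted p = 0.00073) and without KO_siNr6a1 library 0 (adjusted p = 0.0191), with up to 0.306 over the other alternatives. Between the treatments Id1 was not called (adjusted p = 0.8).

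Id2 was measured at 99.7, 124 and 103 FPKM in KO_let-7g, 66.8, 101 and 90.7 in KO_siNr6a1, 40.8, 50 and 32.7 in KO_siCtrl, and 40.9, 50.5 and 35 in WT_siCtrl. It was not called between KO_siCtrl and WT_siCtrl (adjusted p = 0.888), and both treated groups lay above all 6 control libraries (log2 fold change 1.39 ± 0.19, adjusted p = 0.000163 with let-7g and log2 fold change 1.05 ± 0.19, adjusted p = 0.00221 with siNr6a1). Between the treatments Id2 was not called (log2 fold change 0.35 ± 0.19, adjusted p = 0.172), though it was higher with let-7g with the block (adjusted p = 0.0348, and up to 0.504 over the other alternatives).

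Skil, or SnoN, represses SMAD-driven transcription and is itself induced by TGF-beta. It holds 1 8mer and 2 7mers and was measured at 9.49, 9.24 and 7.21 FPKM in KO_let-7g, 22.6, 18.1 and 18.1 in KO_siNr6a1, 21.4, 22.4 and 16.6 in KO_siCtrl, and 18, 14.3 and 11.5 in WT_siCtrl. KO_let-7g libraries lay below all other libraries (log2 fold change -1.13 ± 0.17, adjusted p = 0.000327 against KO_siCtrl and log2 fold change -1.10 ± 0.17, adjusted p = 0.000551 against KO_siNr6a1), while KO_siNr6a1 overlapped KO_siCtrl (adjusted p = 0.92). The rise in KO_siCtrl over WT_siCtrl (log2 fold change 0.45 ± 0.17, adjusted p = 0.0443) was lost in 13 of 22 alternative settings (adjusted p of 0.0518 to 0.166), among them the omission of any 1 library other than KO_siCtrl library 2, WT_siCtrl library 0, KO_let-7g library 2 or KO_siNr6a1 library 0.

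**Figure D4:**
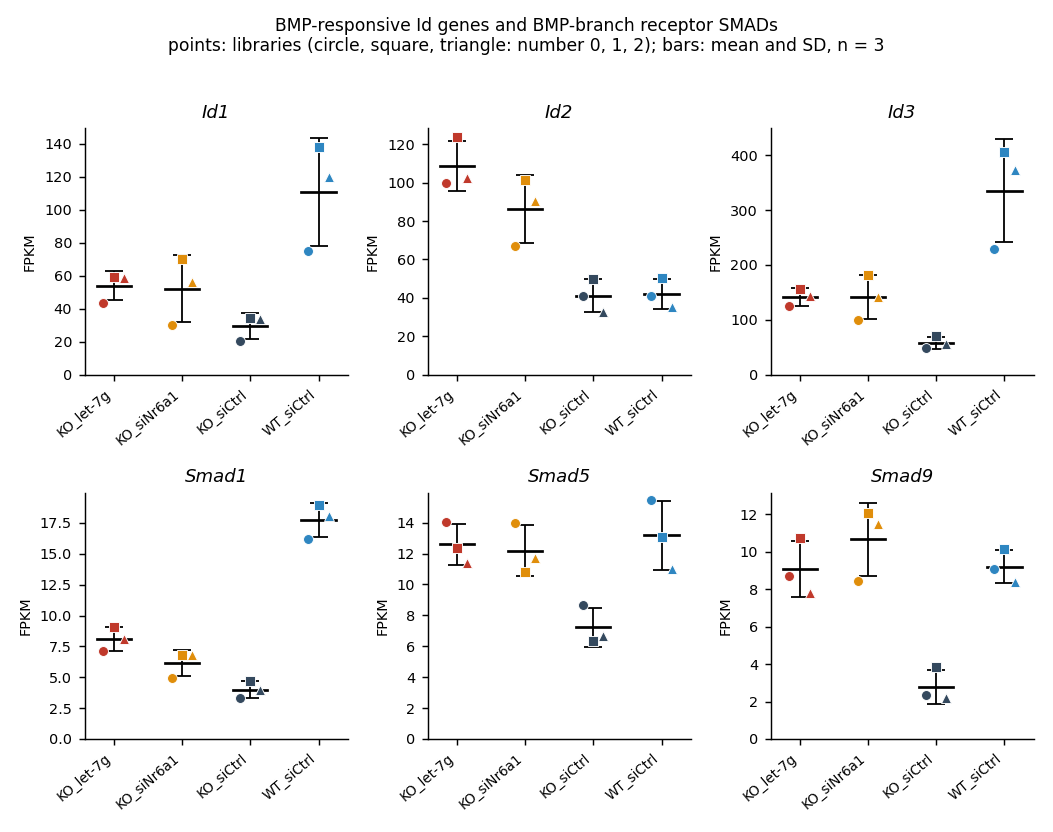
FPKM in each library of the 3 Id genes and the 3 BMP-branch receptor SMADs, with the mean and SD of each group of 3. KO_siCtrl is lowest for Id1, Id3 and all 3 SMADs on average. Id2 is higher in the treated groups than in both control groups, and the library numbered 0 is the lowest of its group for Id1, Id3 and Smad1.

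Libraries of the same number moved together in these genes. Library 0 was the lowest of its group in all 4 groups for Id1, Id3, Smad1, Bmp4, Eng, Tgfb1 and Smad7, and library 1 the highest in all 4 for Id1, Id2, Id3, Smad1, Smad9, Smad6, Fst and Acvr1. The order also ran the other way: library 0 was the highest in all 4 for Inhba, Bmpr2 and Smad5, and library 1 the lowest in all 4 for Ltbp1, Grem1, Tgfbr2 and Smurf1. What the number stands for is not given in the labels. Taking the number as a block removed no call and added some. It added Acvr2a and Smad7 (higher) in KO_siCtrl against WT_siCtrl, and Bmp4, Ltbp1, Tgfbr3 and Eng (lower) in KO_let-7g against KO_siCtrl. With siNr6a1 it added Bmp4, Inhba, Acvr1b, Bmpr1a, Smad4 and Id1 (higher) and Ltbp1, Grem1 and Smad7 (lower). Between the treatments it added Tgfbr2, Smad1 and Id2 (higher with let-7g) and Acvr1 and Bmpr1a (lower with let-7g).

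Cell type markers moved with the Dicer comparison. The summed level of 14 mesenchymal markers was 2330 to 2480 FPKM in KO_siCtrl and 4050 to 4750 FPKM in WT_siCtrl, and the list went both ways, with 6 of 13 tested markers lower and 4 higher (Ly6a, Cd44, Nt5e and Vcam1). The summed level of 10 osteoblast and cartilage markers was 60.3 to 93.1 FPKM in KO_siCtrl and 438 to 858 FPKM in WT_siCtrl, with 7 of 8 tested markers lower and 1 higher, and none of the 10 was at 0 in every library of either group. The summed level of 7 adipocyte markers was 72.4 to 122 FPKM in KO_siCtrl and 601 to 850 FPKM in WT_siCtrl, with all 4 tested markers lower. Beside these marker counts, 25.2% of all tested genes were lower and 29.1% higher in KO_siCtrl against WT_siCtrl. The part of these markers' cell types in the lower Bmp4, Id1 and Id3 of KO_siCtrl was not tested. In KO_let-7g the osteoblast sum was 58.5 to 94.9 FPKM and in KO_siNr6a1 90.1 to 162 FPKM.

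Members with and without a let-7 site were then set beside the same classes of all tested genes. With let-7g, of the 10 members with a 7mer or 8mer, 5 were lower than in KO_siCtrl (Tgfbr1, Skil, Gdf11, Acvr1b and Acvr2a), 2 were higher (Smad5 and Smurf2) and 3 were not called. Of the 28 without a site, 3 were lower (Tgfb3, Ltbp3 and Smad6), 11 were higher and 14 were not called. Over all tested genes, 37.7% of those with a site and 15.4% of those without were lower with let-7g. In the same classes 17.1% and 29.4% were higher. With siNr6a1 the corresponding shares were 15.4% and 16.6% lower, and 16.9% and 13.1% higher. Of the 10 members with a site 1 was lower with siNr6a1 (Gdf11) and 3 were higher (Tgfbr3, Smad5 and Smurf2). Against KO_siNr6a1, KO_let-7g was lower in 5 of the 10 members with a site and higher in 0 at an adjusted p under 0.05 in limma (also 0 at an unadjusted p under 0.05), and the 5 were Tgfbr1, Skil, Tgfbr3, Acvr1b and Acvr2a. Over all tested genes with a site, 34.7% were lower and 13.5% higher in that comparison. Of the 28 members without a site, 3 were lower and 4 higher there, beside 10% and 29.9% of all tested genes without one. Tgfbr3 was higher with siNr6a1 than in KO_siCtrl and was not called with let-7g against KO_siCtrl (adjusted p = 0.12). Gdf11 holds a site and was lower with both treatments by similar amounts.

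**Figure D5:**
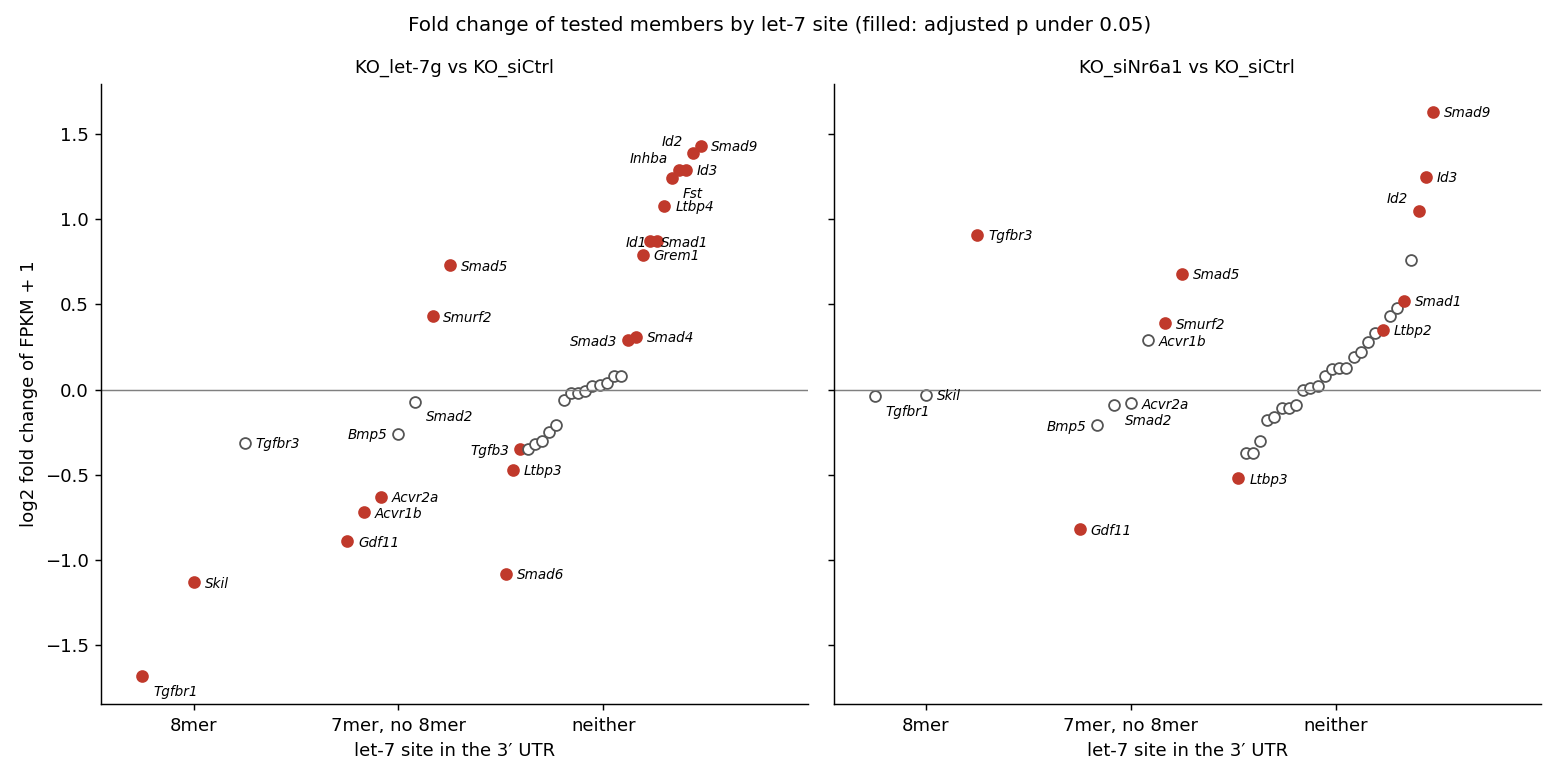
Log2 fold change (of FPKM + 1) of the 38 tested members with let-7g (left) and siNr6a1 (right) against KO_siCtrl, by the strongest let-7 site in the 3′ UTR. Within a class, points are spread along the axis in order of their fold change, and filled points have an adjusted p under 0.05. With let-7g, 5 of the 10 members with a site are filled below 0, and with siNr6a1 only Gdf11 is.

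Promoters were scanned because Id2, Id3 and Smad6 are known targets of SMAD signalling. RefSeq promoter windows of 300 bases, 250 before and 50 after the start site (GRCm38.p6), were at hand for 36 of the 51 members, and Id1 was not among them. The palindrome GTCTAGAC, a paired SMAD-binding element that reads the same on both strands, was found for 1 of the 36 members, Smad6. It was in 0.213% of all 32851 windows and 0.218% of the windows of tested genes. The BMP-type element GGCGCC, also the same on both strands, was in at least 1 window of 11 of the 36 members. It was in 11.9% of all windows and 21.4% of the windows of tested genes. Several members had more than 1 window, so the counts of members and the shares of windows are unlike measures. Matches of the motifs cannot overlap each other. The stretches below show the motif in capitals for Smad6 and Id2, whose levels differed with let-7g in opposite directions.
Smad6 promoter, chr9:64022054-64022113, minus strand: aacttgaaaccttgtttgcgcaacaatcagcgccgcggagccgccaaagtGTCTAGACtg
Id2 promoter, chr12:25096283-25096342, minus strand: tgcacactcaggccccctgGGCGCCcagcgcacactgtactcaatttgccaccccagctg
In Smad6 the motif began 4 bases before the start site, and in Id2 231 bases before it. No GGCGCC was found in the window of Id3. A match is a description of the letters and not of binding.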

How the data were processed

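The authors deposited 1 table of FPKM values, 1 column per library. The submitters' processing notes name the build mm9, Cufflinks 1.0.3 and TopHat 1.2.0. The use of strand in counting is not stated in the labels or the file, and the table gives no read totals. Relative depth was read from the steps of low values.

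Groups came from sample titles. A pseudocount of 1 was added to FPKM before taking log2. In limma 3.58.1 under R 4.3.3, the 12 libraries were fitted together with the 4 group means as coefficients, a variance trend and two-sided moderated tests with 8 residual degrees of freedom. Benjamini-Hochberg adjustment ran over all 11801 tested genes of a comparison, and genes with an adjusted p under 0.05 were called. Errors of fold changes are standard errors. Fold changes on this scale understate those of low genes. The script was tested on simulated data. FPKM is a share of a library, so abundant genes move all others.

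Library numbers were compared across groups: deviations from group means correlated at 0.127 to 0.465 in all 12 same-number pairs, above the limit of 0.1. That the numbers pair the libraries rests on these values and on no label. The main fit did not use the pairing. Counts, standard errors and adjusted p-values are from the main fit unless the block or another alternative is named. A fit with the library number as a block was an alternative, beside other pseudocounts, filters, scalings, fits on the compared libraries and single libraries left out.

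Per-library values are given for members called with an absolute log2 fold change of at least 1 against a control siRNA group and for up to 4 per role with the smallest adjusted p. Members and gene lists were chosen with earlier results of these data known. Of other pathway genes, up to 4 per list and comparison with the smallest adjusted p are named.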

Additional observations from a re-analysis of the deposited data

How the results depend on the processing

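Of 70 calls of members over the 4 comparisons, 56 held under all 22 alternatives that gave a value, and 14 were lost under at least 1. No direction of a called member turned under any of them. With the library number as a block, that is the pairing, members higher in KO_siNr6a1 than in KO_siCtrl were 14 and lower 5, and members higher in KO_let-7g than in KO_siNr6a1 were 7. Of all tested genes, 44.5% were called with the block in the first comparison and 54.7% in the second. The block changed no other count by over 1.5 times. In KO_let-7g against KO_siNr6a1, a filter of a mean of at least 5 FPKM gave 2 higher (fewer genes were tested), quantile scaling gave 2 higher, and median-of-ratios scaling gave 13 lower. Of all genes tested under these settings, 40.4%, 36.4% and 37% were called either way. Without 1 library at a time, that comparison gave 2 to 4 higher and 6 to 9 lower, and KO_siNr6a1 against KO_siCtrl gave 6 to 9 higher and 1 to 3 lower. The same omissions gave 11 to 12 higher and 6 to 10 lower in KO_let-7g against KO_siCtrl, and 5 to 7 higher and 19 to 21 lower in KO_siCtrl against WT_siCtrl. The cause of the changes under scaling and omission was not tested. A pseudocount of 0.1 gave 0.63 for Ltbp2 in KO_siNr6a1 against KO_siCtrl, against 0.35 with 1. With no filter on low values all 51 members were tested. With 3 libraries per group and no read counts, the counting error behind the values of low genes such as Nog is unknown.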

Other observations

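Other genes of the pathway, taken from lists of known regulators and response genes, extend the account beyond the members. Thbs1, or thrombospondin, releases TGF-beta from its latent form and was measured at 159, 178 and 126 FPKM in KO_let-7g, 621, 552 and 686 in KO_siNr6a1, 432, 433 and 412 in KO_siCtrl, and 401, 297 and 247 in WT_siCtrl. KO_let-7g lay below every other library (log2 fold change -1.47 ± 0.17, adjusted p = 5.45e-05 against KO_siCtrl, and adjusted p = 1.76e-05 against KO_siNr6a1), and with siNr6a1 Thbs1 was higher than in KO_siCtrl (log2 fold change 0.54 ± 0.17, adjusted p = 0.0355). Itgav, the integrin subunit that frees latent TGF-beta by binding its prodomain, was measured at 32.2, 36 and 26.2 FPKM in KO_let-7g, 60.2, 58.7 and 54.6 in KO_siNr6a1, 81.5, 89.7 and 67.4 in KO_siCtrl, and 62.8, 52 and 45 in WT_siCtrl and was lower with let-7g (log2 fold change -1.31 ± 0.15, adjusted p = 4.22e-05) and with siNr6a1 (log2 fold change -0.44 ± 0.15, adjusted p = 0.0408). Lrrc32, or GARP, which holds latent TGF-beta on the cell surface, was measured at 2.39, 3.22 and 1.82 FPKM in KO_let-7g, 6.71, 9.17 and 5.85 in KO_siNr6a1, 8.14, 9.72 and 7.13 in KO_siCtrl, and 7.34, 5.46 and 6.9 in WT_siCtrl and was lower with let-7g (log2 fold change -1.44 ± 0.19, adjusted p = 0.000113) and not called with siNr6a1 (adjusted p = 0.483). Of 12 tested antagonists and extracellular regulators outside the members, 2 were higher and 4 lower with let-7g, 3 higher and 4 lower with siNr6a1, and 3 higher and 5 lower in KO_siCtrl against WT_siCtrl. Over all tested genes, 27.5% were higher and 18.2% lower with let-7g, 13.2% and 16.3% with siNr6a1, and 29.1% and 25.2% in KO_siCtrl against WT_siCtrl. The same shares are the background of the response genes. In KO_siCtrl against WT_siCtrl, Chrdl1, a BMP antagonist related to chordin, was lowest of these by fold (log2 fold change -3.63 ± 0.12, adjusted p = 2.82e-09), followed by Bgn, a matrix proteoglycan (log2 fold change -3.04 ± 0.10, adjusted p = 2.82e-09). Of 6 tested receptors and co-receptors outside the members, 2 (Rgma and Rgmb) were higher and 3 lower in KO_siCtrl than in WT_siCtrl. With let-7g 2 were higher and 2 lower, and with siNr6a1 2 and 1. Of 18 tested intracellular regulators, 5 were higher and 4 lower in KO_siCtrl than in WT_siCtrl. With let-7g 3 were lower and with siNr6a1 4, and 0 were higher with either at an adjusted p under 0.05 in limma. Cd109, a TGF-beta co-receptor that lowers the signal, was lower in KO_siCtrl than in WT_siCtrl (log2 fold change -3.09 ± 0.16, adjusted p = 6.3e-08) and higher with let-7g than in KO_siCtrl (log2 fold change 1.02 ± 0.16, adjusted p = 0.000408), and also with siNr6a1 (log2 fold change 0.55 ± 0.16, adjusted p = 0.0243).

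Of 27 tested TGF-beta response genes, 6 were higher and 15 lower in KO_siCtrl than in WT_siCtrl, with a median log2 fold change of -0.82. With let-7g 6 were higher and 3 lower, beside 27.5% and 18.2% of all tested genes. With siNr6a1 11 were higher and 1 lower, beside 13.2% and 16.3%. KO_let-7g was higher than KO_siNr6a1 in 1 and lower in 10, beside 27.6% higher and 13.3% lower over all tested genes. Snai2, a mesenchymal transcription factor, was measured at 47.5, 57.8 and 53.2 FPKM in KO_let-7g, 21.1, 31.1 and 25.7 in KO_siNr6a1, 13.3, 16.2 and 15.4 in KO_siCtrl, and 66.2, 101 and 77.2 in WT_siCtrl and was higher with let-7g (log2 fold change 1.75 ± 0.17, adjusted p = 1.53e-05) and with siNr6a1 (log2 fold change 0.74 ± 0.17, adjusted p = 0.00659). Angptl4 was lower with let-7g (log2 fold change -1.26 ± 0.10, adjusted p = 4.82e-06) and with siNr6a1 (log2 fold change -0.57 ± 0.10, adjusted p = 0.00148). Timp1, an inhibitor of matrix proteases, was higher with let-7g (log2 fold change 0.67 ± 0.14, adjusted p = 0.00234) and with siNr6a1 (log2 fold change 0.98 ± 0.14, adjusted p = 0.000507). Of 10 tested BMP response genes, 1 was higher and 8 lower in KO_siCtrl than in WT_siCtrl, with a median of -1.44, and 3 were higher and 0 lower with each treatment in limma at an adjusted p under 0.05, of which the 3 higher with let-7g are near the share over all tested genes. At an unadjusted p under 0.05, 0 were lower with let-7g and 1 with siNr6a1. Hes1 was measured at 9.56, 12.1 and 10.6 FPKM in KO_let-7g, 4.24, 5.44 and 5.22 in KO_siNr6a1, 2.61, 3.89 and 3.3 in KO_siCtrl, and 7.8, 5.55 and 5.91 in WT_siCtrl, and was higher with let-7g (log2 fold change 1.47 ± 0.15, adjusted p = 2.57e-05) and with siNr6a1 (log2 fold change 0.49 ± 0.15, adjusted p = 0.031). Dlx5, a bone-forming homeobox factor, was measured at 3.44, 4.23 and 2.32 FPKM in KO_let-7g, 9.92, 16.1 and 13.7 in KO_siNr6a1, 3.51, 7.66 and 3.46 in KO_siCtrl, and 40, 68.7 and 75.2 in WT_siCtrl, and was higher with siNr6a1 (log2 fold change 1.33 ± 0.31, adjusted p = 0.00823), not called with let-7g (adjusted p = 0.325) and lower with let-7g than with siNr6a1 (log2 fold change -1.72 ± 0.31, adjusted p = 0.00131). The BMP list includes Runx2 and Sp7, which are also osteoblast markers, and the list was chosen with earlier results of these data known. Which response genes passed the filter only through WT_siCtrl was not examined, and for any such gene a call as lower was fixed in advance.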
